A study of Mus musculus with 18 samples.

Results

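The genes described here are 7 that are active in the red cell lineage, namely the embryonic globins Hbb-y, Hbb-bh1 and Hba-x, the adult globin Hba-a1, and Alas2, Slc4a1 and Ahsp. Their probe sets were found by gene symbol. On the array, 6 of the 7 genes had a probe set that carried their symbol alone, in 12 probe sets out of the 45037 tested. Another 3 probe sets listed Hba-a1 together with Hba-a2, and the annotation used here assigned none to Ahsp, the chaperone of free alpha globin. RNA came from the lungs of BALB/c mouse fetuses on gestational day 17 (GD17) or GD18. The dams had been injected daily under the skin, from GD10 until the day before harvest, with vehicle or with 1 mg of flutamide, an antagonist of the androgen receptor. The 6 groups were vehicle males (17 m, 18 m), vehicle females (17 f, 18 f) and flutamide-treated males (17 flut, 18 flut). Each group held 3 arrays. The methods of the study state that each array carried a pool of 3 fetuses of 1 sex and treatment from distinct litters, so that no single fetus was measured.

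In the mouse, the first red cells arise in the yolk sac and carry embryonic globins. The red cells made later in the fetal liver carry adult globins. The change from embryonic to adult globins during gestation is known as globin switching. Hbb-y and Hbb-bh1 encode beta-like chains and Hba-x encodes the alpha-like zeta chain of embryonic hemoglobin, while Hba-a1 and its near-identical neighbour Hba-a2 encode adult alpha globin. Alas2 is the enzyme that starts heme synthesis in red cell precursors, and Slc4a1 is band 3, the anion exchanger of the red cell membrane. In a lung free of other tissue these transcripts would come mainly from circulating blood, but some pools here also held raised liver transcripts, as given below. In such bulk samples fewer cells of a type and less RNA per cell cannot be told apart.

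Promoter sequence in RefSeq (GRCm38.p6) was matched for 4 of the 7 members, Hbb-y, Hba-x, Hba-a1 and Alas2, and is shown because Hbb-y and Hba-x were called lower and Alas2 higher at GD18 below, beside the adult globin Hba-a1. Each line gives the 250 bases before the start site, 5′ to 3′ on the strand of the gene. Capitals mark 3 motifs of 5 letters, searched on both strands so that a match on the other strand shows as the reverse complement. They are GATAA for the GATA factors, the box CACCC for Krüppel-like factors and the box CCAAT for the proteins that bind it. The windows lie at chr7:103853208-103853457 (minus strand) for Hbb-y, chr11:32276350-32276599 (plus strand) for Hba-x, chr11:32283422-32283671 (plus strand) for Hba-a1 and chrX:150547167-150547416 (plus strand) for Alas2. The reference is not of the BALB/c strain.
Hbb-y: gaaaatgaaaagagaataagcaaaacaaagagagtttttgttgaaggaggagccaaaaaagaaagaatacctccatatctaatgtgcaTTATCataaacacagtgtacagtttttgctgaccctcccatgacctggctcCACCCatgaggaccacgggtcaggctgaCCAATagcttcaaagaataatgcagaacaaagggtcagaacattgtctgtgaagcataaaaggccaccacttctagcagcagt
Hba-x: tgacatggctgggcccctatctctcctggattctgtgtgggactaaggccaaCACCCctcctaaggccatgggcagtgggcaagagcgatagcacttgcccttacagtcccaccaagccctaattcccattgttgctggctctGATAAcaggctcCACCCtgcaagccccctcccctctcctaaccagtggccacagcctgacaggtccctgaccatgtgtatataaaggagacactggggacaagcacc
Hba-a1: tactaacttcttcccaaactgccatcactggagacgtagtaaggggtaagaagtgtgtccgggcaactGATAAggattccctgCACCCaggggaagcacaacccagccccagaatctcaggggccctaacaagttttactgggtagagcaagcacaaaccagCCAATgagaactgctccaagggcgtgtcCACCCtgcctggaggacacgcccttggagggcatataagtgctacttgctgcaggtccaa
Alas2: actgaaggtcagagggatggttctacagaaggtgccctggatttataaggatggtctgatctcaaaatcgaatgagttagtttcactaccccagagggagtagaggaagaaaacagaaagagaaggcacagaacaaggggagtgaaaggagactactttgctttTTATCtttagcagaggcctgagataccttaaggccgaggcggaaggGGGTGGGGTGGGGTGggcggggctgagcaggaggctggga
All 4 windows held 1 GATAA and at least 1 CACCC, and those of Hbb-y and Hba-a1 also held CCAAT. Among 32851 promoters of the same length, 22.6% held GATAA, 52% held CACCC, 33.8% held CCAAT and 3.45% held all 3 motifs. In the Alas2 window the 3 copies of CACCC stood side by side between 40 and 26 bases before the start site. The windows of Hba-a1 and Hba-a2, start site included, shared an identical run of 297 of 300 bases. These are matches of letters and do not show that a factor was bound.

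All values are log2 of the deposited intensity, and a difference is the mean of the group named first less that of the other. A probe set was called higher or lower where the adjusted p of the limma model, fitted over all 45037 probe sets and 18 arrays, was under 0.05. A gene with several probe sets is given by the one of highest mean level, as for the 18193 genes that make up the percentages of genes called below. Levels of different genes were not compared, since probe sets differ in how well they bind.

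Several pools stood apart, and this bears on blood genes. The lung epithelium score (mean log2 of 7 markers) was 8.66 to 9.79 at GD17 and 11.00 to 11.39 at GD18, so lung was present in every pool. Exocrine pancreas genes (9 measured) averaged 9.84 to 10.42 in 17 f 2, 17 f 3 and 17 m 3 against 5.54 to 6.10 in the other 15 pools. A liver score of 9 genes lay more than 2 log2 units above the lowest pool of its own group in 17 flut 1, 17 m 3, 18 flut 2 and 18 m 3. This rule is relative to the group and does not mean that other pools were free of liver. The score was 11.13 in 17 f 2 and 11.08 in 17 f 3, against 11.08 in 17 m 3. In 18 flut 1, which the rule did not mark, it was 9.76, as in 17 flut 1. Xist, the RNA of the inactive X chromosome, was at 11.95 in 18 flut 3, a pool labelled male, within the range of the females (11.33 to 12.51). In that pool 3 genes of the Y chromosome (Uty, Kdm5d, Eif2s3y) lay between 7.11 and 7.21, against 3.09 to 3.84 in the females and at least 7.90 in the other male pools. Unlike any other pool, it thus held a female level of Xist beside Y transcripts, and whether it mixes the sexes was not tested. These 7 pools were left out together in an alternative, which kept 11. A red cell reference score was the mean log2 level of 11 genes that are not members, such as Klf1, Gata1, Hemgn and Rhag. It was highest in 17 f 2 (8.64) and 17 f 3 (8.58), followed by 18 m 3 (8.34) and 17 m 3 (8.15), and it lay between 6.46 and 7.53 in the other pools.

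Hbb-y, the embryonic epsilon-y chain, had the widest range of the members, 33.5-fold between 17 f 1 and 18 flut 1. In 17 f it was at 12.77, 12.24 and 12.32, in 17 m at 11.89, 10.74 and 12.03 and in 17 flut at 11.10, 10.29 and 10.86. In 18 f it was at 9.46, 10.27 and 10.33, in 18 m at 9.15, 9.20 and 9.60 and in 18 flut at 7.70, 9.45 and 8.63. Within each treatment every GD18 pool lay below every GD17 pool. Over the 3 treatments, which share no pools, Hbb-y fell by 2.27 (SE 0.23, adjusted p 3.9e-07), a 4.83-fold lower intensity at GD18. The difference was -2.24 in males, -2.42 in females and -2.15 in flutamide-treated males, each called, with adjusted p of 0.000517, 0.000123 and 0.000787. The other 2 probe sets of Hbb-y were called lower in the same comparisons. By mean level the groups ran 17 f (12.44 ± 0.28, SD, n = 3 pools), 17 m (11.55 ± 0.71), 17 flut (10.75 ± 0.41), 18 f (10.02 ± 0.49), 18 m (9.32 ± 0.25) and 18 flut (8.59 ± 0.87). Each of these groups overlapped with the next in pool values, apart from 17 f and 17 m.

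**Figure D1:**
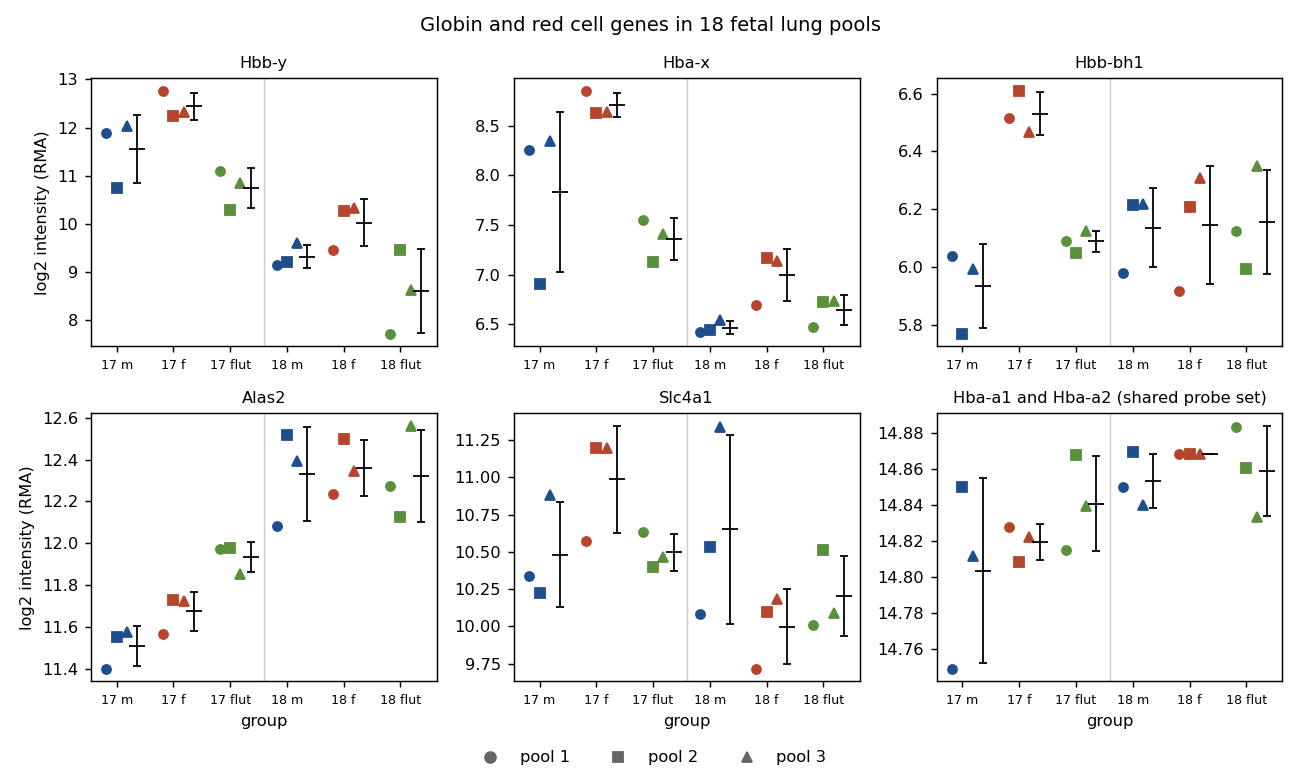
Log2 intensity (vertical axis, a separate scale in each panel) of 5 members and of a probe set shared by Hba-a1 and Hba-a2 in the 6 groups (horizontal axis), with a point for each pool and, to its right, the mean and SD of 3 pools in black. Hbb-y and Hba-x lie lower at GD18, Alas2 lies higher, and 18 m 3 is the highest pool for Slc4a1 at 11.34.

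Hba-x, the embryonic zeta chain, followed a like course at a lower intensity. It was at 8.86, 8.63 and 8.64 in 17 f, at 8.26, 6.90 and 8.35 in 17 m and at 7.55, 7.13 and 7.41 in 17 flut. At GD18 it was at 6.70, 7.17 and 7.13 in 18 f, at 6.42, 6.44 and 6.55 in 18 m and at 6.48, 6.73 and 6.73 in 18 flut. The GD18 pools lay near the median of all probe sets (6.38), and 17 m 2 stood about as low as the GD18 females. Hba-x was 1.27 lower at GD18 over the treatments (log2 difference -1.27, SE 0.15, adjusted p 3.4e-06), and it was called in males (-1.37) and in females (-1.71). The male call was lost when only 17 m and 18 m were fitted (adjusted p 0.051). In flutamide-treated males the difference was -0.72 (adjusted p 0.069) and was not called, although the pools of the days did not overlap. Across the 18 pools Hba-x and Hbb-y correlated with r = 0.94, and with r = 0.79 after group means were removed, a description of pools that share arrays and groups.

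Hbb-bh1, the other embryonic beta-like globin of the early yolk sac, was low and moved little. Its brightest probe set ranged from 5.77 in 17 m 2 to 6.61 in 17 f 2, around the median of all probe sets. In 17 f it was at 6.52, 6.61 and 6.47, above each of the other 15 pools, which reached 6.35. The other groups had means between 5.93 and 6.15 with overlapping pools, except that 17 m lay below 17 flut. It was called lower in 18 f than in 17 f (-0.39, SE 0.11, adjusted p 0.012), as were its other 2 probe sets. This call was lost without 17 f 2 (-0.35, adjusted p 0.050) or without 18 f 1 (-0.27, adjusted p 0.079). With the 7 pools left out it was at -0.37 (adjusted p 0.13), while the other 2 probe sets kept their calls (-0.81, adjusted p 0.00059, and -0.76, adjusted p 0.0099). In males the 3 probe sets gave day differences of 0.20, -0.21 and 0.02 and disagreed in sign, so no direction can be given.

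The probe sets that list Hba-a1 were at opposite ends of the scale. The 3 probe sets shared by Hba-a1 and Hba-a2 lay between 14.46 and 14.88 in all pools and ranked 1 to 7 of the 45037 on every array. At such an intensity an array has little room left to show a rise. One of them was called higher at GD18 over the treatments by 0.09 (SE 0.03, adjusted p 0.019). The probe set assigned to Hba-a1 alone lay between 3.83 and 4.32, among the dimmest, with a GD18 minus GD17 difference of 0.09 (adjusted p 0.17). Hbb-b2, an adult beta globin and not a member, was higher at GD18 by 0.54 (SE 0.06, adjusted p 2.9e-06). It was at 10.68, 10.80 and 11.01 in 17 m and at 11.48, 11.76 and 11.76 in 18 m. In flutamide-treated males the Hbb-b2 difference was 0.25 (adjusted p 0.13), not called, against 0.84 in males and 0.52 in females, both called. Hba-a2, also not a member, had a probe set of its own with a mean level of 6.89. Its day difference was -0.26 in males, -0.21 in females and -0.13 in flutamide-treated males, called in none. The embryonic chains Hbb-y and Hba-x thus differed in sign from Hbb-b2 but not from this probe set of Hba-a2.

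Alas2, the first enzyme of heme synthesis in red cell precursors, was the only member called higher at GD18. At GD17 it was at 11.40, 11.55 and 11.57 in 17 m, at 11.57, 11.73 and 11.73 in 17 f and at 11.97, 11.98 and 11.85 in 17 flut. At GD18 it was at 12.08, 12.52 and 12.39 in 18 m, at 12.24, 12.50 and 12.35 in 18 f and at 12.27, 12.13 and 12.56 in 18 flut. Every GD18 pool lay above every GD17 pool, and the 3 GD18 groups had means between 12.32 and 12.36. The rise over the treatments was 0.63 (SE 0.07, adjusted p 8.9e-07), a 1.55-fold change. It was 0.83 in males and 0.69 in females. In flutamide-treated males it was 0.39 (adjusted p 0.026), and that call was lost without 17 flut 1, 17 flut 2, 17 flut 3, 18 flut 1 or 18 flut 3, each left out alone, when the rise was 0.27 to 0.41.

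Slc4a1, the band 3 anion exchanger, differed between the days in females and was spread widely within other groups. It was at 10.34, 10.22 and 10.88 in 17 m and at 10.08, 10.53 and 11.34 in 18 m, at 10.57, 11.19 and 11.19 in 17 f and at 9.71, 10.09 and 10.19 in 18 f. In 17 flut it was at 10.63, 10.40 and 10.46, and in 18 flut at 10.01, 10.51 and 10.09. Only in females did the pools of the 2 days not overlap, and there Slc4a1 was called lower at GD18 (-0.99, SE 0.26, adjusted p 0.0075). In males the difference was 0.17 (adjusted p 0.71). Over the treatments it was -0.37 (SE 0.15, adjusted p 0.064), and it was called without 18 m 3 (-0.49, adjusted p 0.0039), without 17 f 1, without 18 flut 2 and with the 7 pools left out (-0.32, adjusted p 0.043), where its other 2 probe sets were called too. In females the difference was -0.57 (adjusted p 0.052) with the 7 pools left out, 17 f 2 and 17 f 3 among them, and another probe set kept its call there (-0.63, adjusted p 0.0076).

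Counted by gene, 3 of the 6 measured members were called over the treatments (Hbb-y and Hba-x lower, Alas2 higher), beside 47.6% of all genes. In males the same 3 were called, where 30.1% of all genes were called. In females 5 of 6 were called (these 3 with Hbb-bh1 and Slc4a1, both lower), where 39.6% of genes were called. In flutamide-treated males 2 of 6 were called (Hbb-y and Alas2), where 26.7% of genes were called. With so large a share of the array called between the days, the count of members says little by itself. The size of the change does differ among members, from -2.27 in Hbb-y to 0.63 in Alas2. The median day difference of the 6 members was -0.20, and that of all genes was 0.00.

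**Figure D2:**
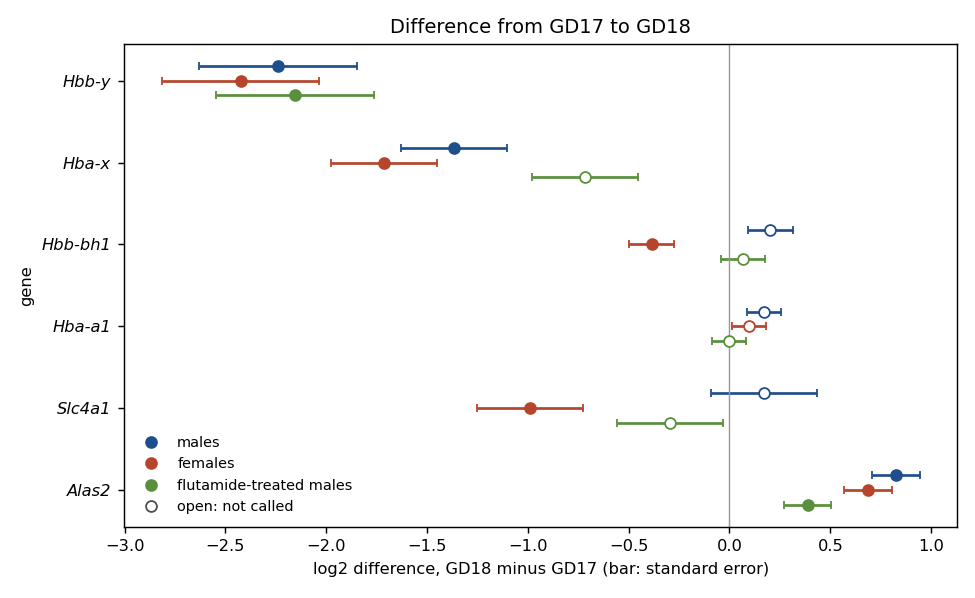
Log2 difference of GD18 minus GD17 (horizontal axis, bars are standard errors of the limma model) for the 6 measured members (vertical axis) in males, females and flutamide-treated males, filled where called. Hbb-y lies between -2.42 and -2.15 in the 3 treatments and Alas2 between 0.39 and 0.83, while Slc4a1 and Hbb-bh1 are filled in females alone.

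Other red cell genes differed between the days gene by gene. Of the 11 genes of the red cell reference list, 4 were lower at GD18 over the treatments and none higher, where 47.6% of all genes were called. By smallest p these began with Trim10 (-0.63) and Epb42 (-0.53), a protein that ties band 3 to the membrane skeleton. In females all 11 were lower, with a median difference of -1.48 against -0.01 for all genes, and in males none was called and the median was 0.18. In the same comparison 3 of 9 liver genes (median -2.41) and 7 of 9 exocrine pancreas genes (median -3.28) were lower. The GD17 females hold 2 of the pools with the highest reference scores, and the part of those pools and tissues in the female difference was not tested.

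Among 12 genes of heme synthesis and iron handling, 2 were higher and 2 lower over the treatments, again below the 47.6% of all genes. Fech, which inserts iron into the heme ring, rose by 0.32 (adjusted p 0.0013). Alas1, the form of the Alas2 enzyme in other tissues, rose by 0.37 (adjusted p 1.5e-06). Tfrc, the transferrin receptor through which cells take up iron, fell by 0.61 (adjusted p 5.4e-06), and Uros, another enzyme of the heme pathway, fell by 0.25 (adjusted p 0.015). Alas1 and Tfrc are active in many cell types, so their changes need not lie in blood. The median over the 12 genes was -0.08.

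Of 12 regulators of red cell genes, 3 were lower at GD18 over the treatments and none higher, also a smaller share than that of all genes. Bcl11a, known as a repressor of embryonic and fetal globin genes, fell by 0.60 (SE 0.05, adjusted p 1.3e-07). Mybl2, a factor of dividing cells, fell by 0.99 (SE 0.07, adjusted p 8.5e-09). Epor, the erythropoietin receptor, fell by 0.21 (adjusted p 0.019). Bcl11a and Mybl2 were lower in each of the 3 treatments. The median of the list was -0.09.

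Of 13 genes of late red cell maturation, 3 rose and 3 fell, a share close to that of all genes, with a median of 0.00. Mkrn1 rose by 0.56 (adjusted p 3.1e-06) and Tmod1, which caps the actin filaments of the red cell skeleton, by 0.50 (adjusted p 5.3e-05). Xpo7, a nuclear export factor, fell by 0.42 (adjusted p 7.4e-06) and Prdx2, a peroxidase abundant in red cells, by 0.25 (adjusted p 0.00016). Platelet markers were higher in 3 of 6 genes and granulocyte markers in 3 of 9, with none lower in either list, where 47.6% of all genes were called in either direction.

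The sex comparison asked whether male and female lungs differed on a given day. At GD17 all pools of 17 m lay below all pools of 17 f in each of the 3 embryonic globins, as they did in 15% of all genes. Other lists lay lower in 17 m too, with none of their genes called: the medians were -0.90 for the red cell reference list, -0.93 for granulocyte, -1.44 for liver and -1.77 for exocrine pancreas genes. The part of the granulocyte, liver and exocrine pancreas genes in the globin differences was not tested. Hbb-bh1 was called (-0.60, SE 0.11, adjusted p 0.0043), and its 2 other probe sets were not (adjusted p 0.067 in both). Hba-x differed by -0.88 (SE 0.26, adjusted p 0.079) and Hbb-y by -0.89 (SE 0.39, adjusted p 0.26), without a call. Thus 1 of 6 members was called, where 1.67% of genes were called. With the red cell reference score as a covariate, Hbb-bh1 was at -0.56 (adjusted p 0.037) and kept its call. Its 2 other probe sets were not called in that fit (-0.45, adjusted p 0.32, and -0.40, adjusted p 0.30). Hba-x was at -0.72 (adjusted p 0.29) and Hbb-y at -0.62 (adjusted p 0.57) in that fit. With each pool left out in turn, the Hba-x difference ran from -1.13 without 17 m 3 (adjusted p 0.023, called) to -0.41 without 17 m 2 (adjusted p 0.19). That of Hbb-y ran from -1.13 without 17 m 3 to -0.48 without 17 m 2 and was never called. With the 7 pools left out, which leaves 17 f 1 alone in its group, none of the probe sets of highest mean was called and Hbb-bh1 was at -0.61 (adjusted p 0.12). Its other 2 probe sets were called there (-0.95, adjusted p 0.0082, and -0.93, adjusted p 0.036), as was a further probe set of Hbb-y (-1.73, adjusted p 0.035). Steap3, an iron reductase of red cell precursors (-0.39), and Dmtn, a protein of the red cell skeleton (-0.47), were the only genes of the other lists of red cell genes that were called at GD17. All 11 reference genes had negative differences, such as Hemgn (-1.85, adjusted p 0.21), without a call.

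At GD18 none of the 6 members was called between the sexes, where 1.68% of genes were called. Slc4a1 was 0.65 higher in males (adjusted p 0.25), but without 18 m 3 the difference was 0.31. Hbb-y was at -0.70 (adjusted p 0.45) and Hba-x at -0.53 (adjusted p 0.38). Alas2 differed by -0.03 (SE 0.12). Tfrc was the only gene of the lists of red cell genes called, at 0.66 higher in males (adjusted p 0.019).

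The change of the sex difference from GD17 to GD18 was called for Hbb-bh1 alone (0.59, SE 0.16, adjusted p 0.032), 1 of 6 members, where 4.77% of genes were called. That call was lost when 17 f 2, 17 f 3, 17 m 2, 18 f 1 or 18 m 2 was left out, with adjusted p of 0.053 to 0.090. It was also lost with the red cell reference score as a covariate (0.53, adjusted p 0.19). Slc4a1 had the larger value (1.16, SE 0.37, adjusted p 0.079), and it was called without 17 f 1, 17 m 3 or 18 m 1. It was 0.06 (adjusted p 0.92) with the red cell reference score as a covariate and 0.60 (adjusted p 0.25) with the 7 pools left out. Hbb-y (0.19) and Hba-x (0.35) were not called.

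The flutamide comparison asked whether blocking androgen action changed the male lung. At GD17 none of the 6 members was called between males and flutamide-treated males, where 2.69% of genes were called. Alas2 came nearest, with a log2 difference of -0.43 (SE 0.12, adjusted p 0.055). It was called in 6 of the alternatives, among them the fit with the red cell reference score as a covariate (-0.44, adjusted p 0.040). Hbb-y was 0.81 higher in males (SE 0.39, adjusted p 0.26) and Hba-x 0.47 higher (SE 0.26, adjusted p 0.33), with overlapping pools. The Hba-x difference was 0.94 (adjusted p 0.0048) without 17 m 2, the lowest male pool, 0.22 (adjusted p 0.68) without 17 m 3 and 0.26 (adjusted p 0.68) without 17 m 1. Hbb-b2 was called lower in 17 m (-0.67, SE 0.11, adjusted p 0.0054).

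At GD18 none of the 6 members was called between males and flutamide-treated males, where 4.22% of genes were called, and none had an unadjusted p under 0.05. Hbb-y was 0.72 higher in males (SE 0.39, adjusted p 0.36), and its flutamide pools alone spread from 7.70 to 9.45. Alas2 differed by 0.01 (SE 0.12). The change of the flutamide difference between the days was not called for any member, where 0.17% of genes were called. For Alas2 it was 0.44 (SE 0.17, adjusted p 0.30). Without 17 m 2, Hba-x was called (-1.12, adjusted p 0.024). The sex and flutamide comparisons of a day share their male pools, so a male pool that is high or low moves both.

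**Figure D3:**
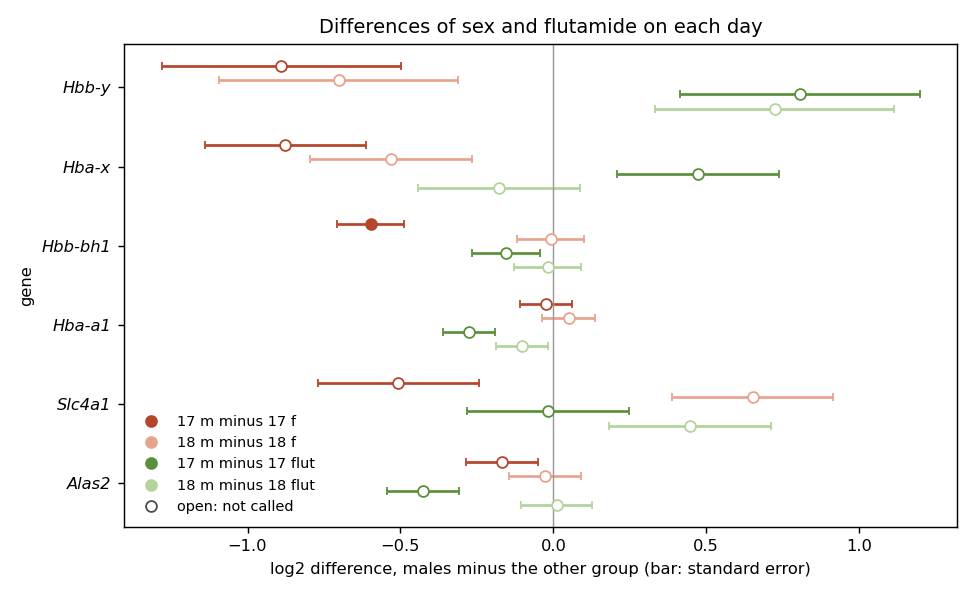
Log2 differences of males minus females and of males minus flutamide-treated males on each day (horizontal axis, bars are standard errors of the limma model) for the 6 measured members (vertical axis), filled where called. The 1 filled point is Hbb-bh1 at GD17, at -0.60 in males minus females.

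Since blood content can vary between pools, each member was set against the red cell reference score within groups, that is, after group means were removed from both. The p-values come from an exact permutation of the pools within their groups (two-sided, 46656 orders), adjusted over the 6 members. Slc4a1 moved with the score, with Pearson's r = 0.89 (exact p 0.0017, adjusted 0.010) and Spearman's rho = 0.89 (exact p 0.0029, adjusted 0.018) over 18 pools. Without 17 f 2 and 17 f 3, the pools farthest from the median score, r was 0.87. It moved with the liver score too (r = 0.84, exact p 0.0021, adjusted 0.013), so the contributions of blood and liver cannot be told apart in these pools. Fetal liver is itself a site of red cell formation, and it holds many immature red cells. For the other 5 members r with the red cell reference score was 0.13 to 0.35 and rho was 0.07 to 0.32, with adjusted permutation p of 0.70 to 0.83. For Hba-a1, near the floor of the array, r was 0.62 without 17 f 2 and 17 f 3. Without those pools r was 0.43 for Hbb-y, 0.34 for Hba-x, 0.15 for Alas2 and 0.125 for Hbb-bh1.

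**Figure D4:**
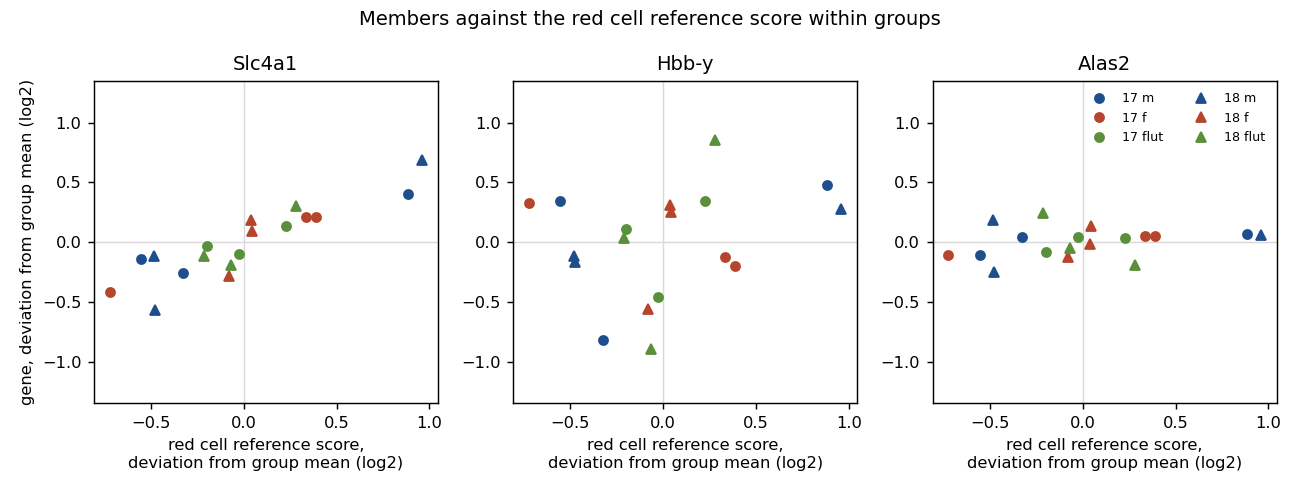
Deviation of Slc4a1, Hbb-y and Alas2 from their group means (vertical axis, log2) against the deviation of the red cell reference score (horizontal axis, log2), with a point for each of 18 pools, circles for GD17 and triangles for GD18. Slc4a1 follows the score (r = 0.89), while r was 0.27 for Hbb-y and 0.24 for Alas2.

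Single pools varied in this. The pool with the highest reference score of its group was also the highest for Hbb-y in 17 m, 17 flut, 18 m and 18 flut, but not in 17 f or 18 f. In 18 m 3, Slc4a1 was at 11.34 and the reference score at 8.34, while Alas2 was at 12.39 against 12.52 in 18 m 2, and Hbb-y at 9.60 against 9.20. In 17 f 1, Hbb-y was at its highest (12.77) while the reference score was 7.53, the lowest of its group. With the score as a covariate, the day differences over the treatments were -2.13 for Hbb-y (adjusted p 4.3e-06), -1.18 for Hba-x (adjusted p 3.6e-05) and 0.67 for Alas2 (adjusted p 3.2e-06). For Slc4a1 the day difference was then -0.06 (adjusted p 0.63), and in females it was 0.04 (adjusted p 0.91) in place of -0.99. With the 7 pools left out, Hbb-y was at -2.59 (adjusted p 1.6e-05), Hba-x at -1.27 (adjusted p 0.0010) and Alas2 at 0.66 (adjusted p 0.00024). Slc4a1 was then at -0.32 (adjusted p 0.043) and was called, unlike in the fit with the score. In the fit with the score a dim probe set of Slc4a1 was called lower over the treatments (-0.29, adjusted p 0.029). A further probe set was not called there (-0.03, adjusted p 0.82). In flutamide-treated males that further probe set was called lower (-0.40, adjusted p 0.019), and the brightest was not called (-0.32, adjusted p 0.087).

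Genes with the pattern most like a member were ranked by Pearson's r over the 18 pools, a description that includes the difference between the days. Nearest to Alas2 were Mkrn1 (r = 0.98), Adipor1 (0.97), Rin3 (0.97), Il17rc (0.96) and Ccna1 (0.95). For Mkrn1 and Adipor1 r was still 0.95 and 0.89 after group means were removed, and for Ccna1 it was 0.57. Nearest to Hbb-bh1 were Ccdc182 (r = 0.84), Eif2ak1 (0.82), Pigq (0.77) and Zmynd15 (0.76), followed by Steap3 (0.76). Eif2ak1 encodes the kinase that slows globin synthesis when heme is short. Nearest to Hbb-y, a list added after its values were seen, were Gpsm2 (r = 0.94), Pcbp4 (0.94) and Nxn (0.93), with 0.73, 0.86 and 0.76 after group means were removed. Alas2 and Hbb-y had r = -0.79 over all pools but -0.09 within groups, so their opposition lay between the groups and not between pools of a group.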

How the data were processed

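Lung RNA of 18 pools was hybridized on Affymetrix mouse arrays. Per the methods of the study, the authors applied RMA for background subtraction, normalization and summary. The deposited intensity values are linear, so log2 was taken here, although log2 values had been planned for. The processing notes of the submitters name limma without a version. Of 45101 probe sets, 64 AFFX controls were dropped. In an annotation of 2016, 34945 of the rest had a single symbol, 932 more than 1 and 9160 had no symbol.

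Groups came from the sample labels. A model with a mean for each of 6 groups was fitted with limma 3.58.1 in R 4.3.3 (12 residual degrees of freedom, eBayes), and adjusted p values come from it unless another fit or the permutation test is named, with the Benjamini-Hochberg adjustment within each of 10 comparisons. The members and gene lists were chosen with earlier results of these data known. Named genes are the members, up to 4 genes per list and comparison by smallest p, and the genes most like Hbb-bh1 and Alas2 by r. Some list genes are not reported here. The fit was tested on simulated data. Alternatives covered median centring and cyclic loess, the removal of dim probe sets, array weights, a trended robust prior, a fit of the compared groups alone, the mean of all probe sets of a gene, a replicate block, a red cell score as covariate, and pools left out singly or together. The number of arrays limits the precision.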

Additional observations from a re-analysis of the deposited data

Results flagged for a closer look

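The difference between the sexes in Hbb-bh1 itself differed between the days: the GD18 difference minus the GD17 difference was 0.59 on the log2 scale (SE 0.16, adjusted p 0.032, the interaction term of the limma model). At GD17 each male pool lay below each female pool, and at GD18 the sexes differed by -0.01 (SE 0.11). The other 2 probe sets of the gene gave 0.55 (adjusted p 0.24) and 0.56 (adjusted p 0.15) and were not called. With the 7 pools that stood apart left out, the first of these was called (0.92, adjusted p 0.0081) and the probe set of highest mean was not (0.56, adjusted p 0.20).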

How the results depend on the processing

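The calls of Hbb-y, Hba-x and Alas2 over the treatments and of Hbb-y within each treatment held under every alternative run. Of 1078 values of single members under an alternative, 1026 kept their direction and their side of the threshold or were called in neither, 21 lost a call, 30 gained one and 1 reversed. The reversed value is Slc4a1 in females between the days, 0.038 with the red cell reference score as a covariate. Numbers of members called moved as follows. For males and females at GD17 (1 called), 0 were called when probe sets below the median level were dropped (a filter that left 4 members), 0 with the 7 pools left out, 2 with array weights and 1 to 2 with each pool left out in turn. For males and flutamide-treated males at GD17 (0 called), 1 was called with the filter, the trend and robust prior, only the compared groups, the replicate block or the covariate, 2 with array weights, and 0 to 1 with each pool left out. For females between the days (5 called), 3 were called with the covariate, 3 with the 7 pools left out, 4 with the filter and 4 to 5 with each pool left out, and for males (3 called) 3 to 4 with each pool left out and 2 with only the compared groups. For flutamide-treated males between the days (2 called), 1 was called with the 7 pools left out, 3 with the filter, array weights or only the compared groups, and 1 to 2 with each pool left out. Over the treatments (3 called), 5 were called with the mean of all probe sets of a gene, 4 with median centring, the filter, array weights, the replicate block or the 7 pools left out, and 3 to 4 with each pool left out. For the change of the sex difference (1 called), 0 were called with the filter, only the compared groups, the covariate or the 7 pools left out, 2 with array weights or the replicate block, and 0 to 2 with each pool left out. For the change of the flutamide difference (0 called), 0 to 1 were called with each pool left out. The filter removed Hbb-bh1 and Hba-a1, whose probe sets lie below the median, so Hbb-bh1 was not tested there. Each fall of a count with the filter is this removal of Hbb-bh1 and not a lost call. The cause of the other moves was not tested. Signal limits what the probe sets of Hba-a1 can show, since those shared with Hba-a2 lie near the top of the scale and that of Hba-a1 alone lies near its floor. Of 21 same-numbered pairs of pools, 6 correlated above 0.1, and all 21 lay between -0.32 and 0.37. These correlations cannot show whether a replicate number marks a shared batch. Leaving a group with 1 pool assumes that it varies like the others.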
